A study of Mus musculus with 2 samples.

Results

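The miR-29 family of the mouse comprises the microRNA genes Mir29a, Mir29b-1, Mir29b-2 and Mir29c, which were selected by name as the annotated genes of 2 genomic clusters. They are 4 of the 2202 genes counted in these libraries, and all 4 had reads. MicroRNAs were sequenced from adrenal glands of 2 female B6CASTF1/J mice, 1 gland sample per library, at an age of 10 days. B6CASTF1/J is a hybrid strain bred from C57BL/6J and CAST/EiJ parents. The labels name no treatment, transgene or induced mutation, and both libraries belong to 1 group, labelled biological replicates 1 and 2 and animals 3 and 4. Both carry the same donor entry, so the separation of the animals rests on those numbers, and the spread between the libraries may be partly technical. No condition was compared with another.

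MicroRNAs are short RNAs that guide Argonaute proteins to messenger RNAs, mainly by pairing of their seed, bases 2 to 8, with a site in the 3′ untranslated region, and lower the stability and translation of those messages. The miR-29 family is known for repressing collagens and other proteins of the extracellular matrix, such as elastin and fibrillin, and also the de novo DNA methyltransferases and the survival factor Mcl1. In fibrosis of heart, liver, kidney and lung the family falls, in part through TGF-beta signalling. In the adrenal gland collagens form the capsule and the matrix around the vessels and cords of cells. These libraries hold only small RNAs, so no collagen message was measured and the family's name as a repressor of collagens is background that these counts cannot check.

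The mature sequences show why the members count as 1 family and why their reads differ in how well they can be assigned. The 3p strands, the arm known as the main product, are printed 5′ to 3′ from RefSeq (assembly GRCm38.p6), with the seed in capitals.
mmu-miR-29a-3p: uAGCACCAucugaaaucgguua
mmu-miR-29b-3p: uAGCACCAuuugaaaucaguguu
mmu-miR-29c-3p: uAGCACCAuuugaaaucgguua
All 3 share the seed AGCACCA. Among 1738 mature entries of the mouse in RefSeq this seed stood in 4, which are the 3p entries of the 4 members, with 3 distinct sequences. The only other entry that matched 6 bases of the seed was mmu-miR-3102-3p. Positions were counted from 1 at the 5′ end, with the base of the first-named microRNA given first. Over 22 bases miR-29a-3p and miR-29c-3p differed by the single substitution C10U, which leaves shared stretches of 9 bases at the 5′ end and 12 at the 3′ end. MiR-29b-3p shared its first 17 bases with miR-29c-3p and differed from it by A18G, G21U and U22A. A read of miR-29a is thus set apart by base 10, and one of miR-29c from miR-29b only by bases near the 3′ end.

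The 5p strands, the opposite arms of the same hairpins, differed more. Their seeds, again in capitals, were 4 different sequences, none of them the seed of the 3p strands.
mmu-miR-29a-5p: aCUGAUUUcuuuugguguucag
mmu-miR-29b-1-5p: gCUGGUUUcauauggugguuua
mmu-miR-29b-2-5p: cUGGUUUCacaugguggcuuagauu
mmu-miR-29c-5p: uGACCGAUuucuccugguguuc
With the start of miR-29b-2-5p shifted by 1 base, the 5p strands of the Mir29b copies differed at 2 of 21 compared positions. Reads of this arm can therefore be placed on 1 copy, in contrast to the 3p strand, which is the same 23 bases in both. The hairpins of Mir29b-1 and Mir29b-2 are printed next to show this, with their longest shared stretch of 25 bases in capitals, 2 bases longer than the mature strand inside it.
Mir29b-1 hairpin: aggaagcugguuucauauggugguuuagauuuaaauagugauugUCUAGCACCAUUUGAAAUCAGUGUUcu
Mir29b-2 hairpin: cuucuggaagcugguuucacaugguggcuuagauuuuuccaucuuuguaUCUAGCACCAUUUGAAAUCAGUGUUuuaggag
A read that lies within the capitals aligns to both copies. The deposited counts leave out reads with several alignments and are per hairpin, with the arms not separated.

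The members lie in pairs on 2 chromosomes of GRCm38 (mm10), according to the GENCODE M21 annotation. Mir29a (ENSMUSG00000065610.1) lies at chr6:31062660-31062747 and Mir29b-1 (ENSMUSG00000065604.2) at chr6:31063023-31063093, both on the minus strand. This cluster spans 434 bases, with 275 bases between the hairpins. Mir29b-2 (ENSMUSG00000065412.3) lies at chr1:195037040-195037120 and Mir29c (ENSMUSG00000065548.1) at chr1:195037547-195037634, both on the plus strand. This cluster spans 595 bases, with 426 between the hairpins. Mir29b-2 and Mir29c fall within 1 exon (chr1:195033823-195037904) of A330023F24Rik-204, a retained-intron transcript of a non-coding gene on the same strand. On the opposite strand both fall within an exon (chr1:195036826-195042013) of the protein-coding transcript Cd46-203. On chromosome 6 Mir29a overlapped no other annotated gene, Mir29b-1 overlapped the lincRNA Gm27019 by 2 bases, and the lincRNA Lncpint lay 19471 bases away on the same strand.

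Mir29a was the most abundant member, Mir29c came next, and the Mir29b copies were close to the limit of counting. Levels are CPM, counts scaled to a total of 1000000 reads. The totals scaled are the reads assigned to the strand of a microRNA gene, 2023410 in replicate 1 and 3208821 in replicate 2. Each count stands for a read of a short RNA, and the mature 3p strands are 22 or 23 bases long, so levels were not divided by length. Intervals in parentheses are exact Clopper-Pearson 95% intervals, which cover counting error only. Mir29a had 3257 counts or 1610 CPM in replicate 1 (1555 to 1666) and 2541 counts or 792 CPM in replicate 2 (761 to 823). Replicate 1 was thus higher and the intervals were apart. Its mean was 1201 CPM ± 578 (SD, n = 2), which placed it 73 among all genes in replicate 1, 102 in replicate 2 and 87 by the mean.

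Mir29c, the partner on chromosome 1, had 608 counts or 300.5 CPM (277 to 325) in replicate 1 and 473 counts or 147 CPM (134 to 161) in replicate 2. Again replicate 1 was higher and the intervals were apart. Its mean was 224 CPM ± 108 (SD, n = 2), rank 147 in replicate 1, 182 in replicate 2 and 163 by the mean. The lower of the Mir29a levels was above the higher of the Mir29c levels.

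Mir29b-1 had 19 counts or 9.39 CPM (5.65 to 14.7) in replicate 1 and 24 counts or 7.48 CPM (4.79 to 11.1) in replicate 2. Mir29b-2 had 14 counts or 6.92 CPM (3.78 to 11.6) and 21 counts or 6.54 CPM (4.05 to 10.0). Their means were 8.43 CPM ± 1.35 and 6.73 CPM ± 0.265 (SD, n = 2), ranks 329 and 343. The intervals of both copies overlapped in each library, so this neighbouring pair in the order could not be ranked. A count of 0 would have allowed up to 3 counts (1.48 and 0.935 CPM in replicates 1 and 2), and both copies were above this in both libraries. All 4 members had 0 counts on the opposite strand, the strand of Cd46 for Mir29b-2 and Mir29c.

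**Figure D1:**
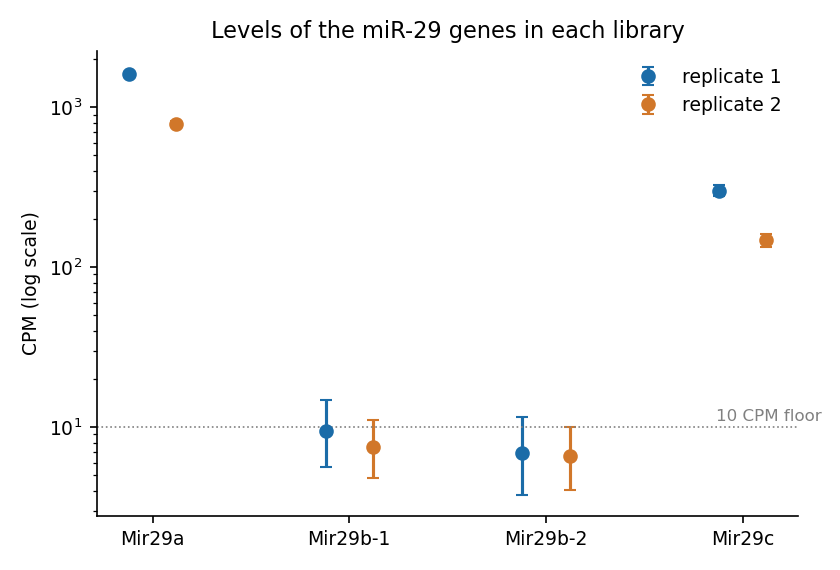
CPM of the 4 miR-29 genes on a log axis in replicate 1 (blue) and replicate 2 (orange), with exact 95% intervals of counting error as bars and the floor of 10 CPM dotted. Mir29a and Mir29c sit higher in replicate 1, and the Mir29b copies, between 6.54 and 9.39 CPM, have overlapping intervals.

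Together the 4 genes held 0.193% of the assigned reads in replicate 1 (3898 counts) and 0.0953% in replicate 2 (3059 counts). Within this sum Mir29a made up 83.6% and 83.1%. The summed counts are lower bounds for the family, since reads of miR-29b that align to both copies are not among them. The percentages are not, because the assigned total also leaves out reads with several alignments. The depth behind this limit can be stated only for all microRNAs: reads with several alignments numbered 65.2 per 100 assigned reads in replicate 1 and 72.6 in replicate 2, from any locus.

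The clusters were compared through Mir29a and Mir29c, whose reads are the better assigned, and the ratio of one to the other was nearly the same in the libraries. There were 5.36 counts of Mir29a per count of Mir29c in replicate 1 (4.91 to 5.85) and 5.37 in replicate 2 (4.87 to 5.94). Their mean was 5.36 ± 0.0107 (SD, n = 2). The ratio in replicate 2 was 1.003 times that in replicate 1 (0.878 to 1.146), and a two-sided Fisher exact test of the 4 counts gave p = 0.973, also 0.973 after Benjamini-Hochberg adjustment over the 2 ratio tests made. On the log2 scale this interval runs from -0.19 to 0.20, so a shift of the ratio beyond these bounds would lie outside counting error, and a smaller one was not detectable at this depth. This ratio needs no scaling between libraries. With the Mir29b copies included, the chromosome 6 cluster had 5.27 and 5.19 counts per count of the chromosome 1 cluster.

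The Mir29b copies divided their few assignable reads about evenly. Mir29b-1 held 57.6% of the Mir29b counts in replicate 1 (39.2 to 74.5%, 33 counts) and 53.3% in replicate 2 (37.9 to 68.3%, 45 counts). The odds ratio between the libraries was 0.844 (0.308 to 2.28; two-sided Fisher exact p = 0.819, adjusted p = 0.973). These counts are too few to show any but a several-fold change. Per 100 reads of the cluster partner, Mir29b-1 had 0.583 and 0.945 counts against Mir29a, and Mir29b-2 had 2.30 and 4.44 against Mir29c.

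Mir29a and Mir29c were both lower in replicate 2, by the same measured size. The test was a two-sided exact binomial test on counts with TMM-scaled library sizes, adjusted by Benjamini-Hochberg over 329 genes that reached 10 CPM in 1 library or both, and the log2 ratio is replicate 2 over replicate 1 with 1 CPM added. It sets these 2 libraries against counting error and not conditions. Of these genes 74.2% passed it at an adjusted p of 0.05, 36.5% lower and 37.7% higher in replicate 2. Mir29a had a log2 ratio of -0.97 (-1.05 to -0.90), 1.97-fold higher in replicate 1, with an adjusted p of 2.4e-144 by this exact test. Mir29c also had -0.97 (-1.16 to -0.80) and 1.97-fold, with an adjusted exact p of 3.0e-28. Thus 2 of the 4 members were tested and both passed, as did 74.2% of all genes at this floor. That share depends on the floor: it was 48.6% of 539 genes at 1 CPM and 31.3% of 790 genes at 1 count in either library. At 100 CPM in either library, a floor that Mir29a and Mir29c also reach, it was 89.9% of 217 genes. Whether fewer cells with these microRNAs or less of them per cell underlies a lower level cannot be told apart in bulk tissue.

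In size, the difference was in the outer part of the range but not at its end. The median log2 ratio of all 329 genes was -0.01, with quartiles of -0.50 and 0.47. As low as Mir29a or lower were 40 genes (12.2%), itself and Mir29c included, and 80 genes (24.3%) lay at least as far from 0 in either direction.

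The Mir29b copies were under the floor of 10 CPM in both libraries and were therefore not tested with the others. Their log2 ratios were -0.25 (-1.21 to 0.67) for Mir29b-1 and -0.03 (-1.08 to 1.06) for Mir29b-2. Both intervals hold 0 as well as -0.97. Taken alone, each copy could at this depth be told neither from an equal level in the libraries nor from the difference of Mir29a. Together the copies had 33 and 45 counts in replicates 1 and 2, and the log2 ratio of this sum was not tested. With a floor of 1 CPM and 539 genes tested, their adjusted exact p were 0.640 and 1.

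**Figure D2:**
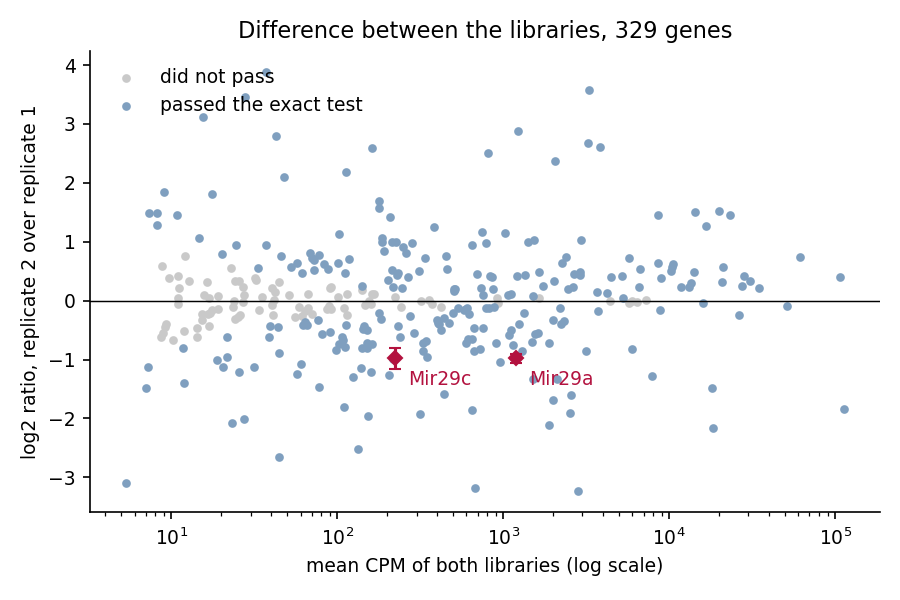
Log2 ratio of replicate 2 over replicate 1 against mean CPM (log axis) for 329 genes, blue where the exact test passed and grey where it did not. Mir29a and Mir29c (red, with exact 95% intervals) lie at -0.97, below the quartile of -0.50, among many genes that differed as much.

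Mir29a and Mir29c lie on different chromosomes and carry the same seed, so they were set beside other such pairs. RefSeq listed 1738 mature entries for 1058 genes, so not every gene has both arms listed and same-seed pairs can be missed. Entries were found for 193 genes averaging 100 CPM or more. By these entries 93 pairs shared a seed but no mature sequence and lay on different chromosomes. The log2 ratios of such a pair differed by a median of 0.47 (quartiles 0.19 and 0.84) and by up to 3.55, and those of all 18528 pairs of these genes by a median of 0.82. With 1 CPM added, the values of Mir29a and Mir29c, at 2 decimals the same, were the closest of the 93. Without the added CPM they were -0.975 and -0.979, so the order among the closest pairs depends on that addition. Counting error for Mir29a and Mir29c reaches 0.20, and 25 of the 93 pairs lay within that bound, as did 13.0% of all pairs. Other close pairs were Mir16-2 with Mir497 (-0.72 and -0.71), Mir100 with Mir99a (0.49 and 0.49) and Mir148a with Mir152 (-0.13 and -0.12), named after their values were seen. The pairs share genes and libraries and are a description.

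**Figure D3:**
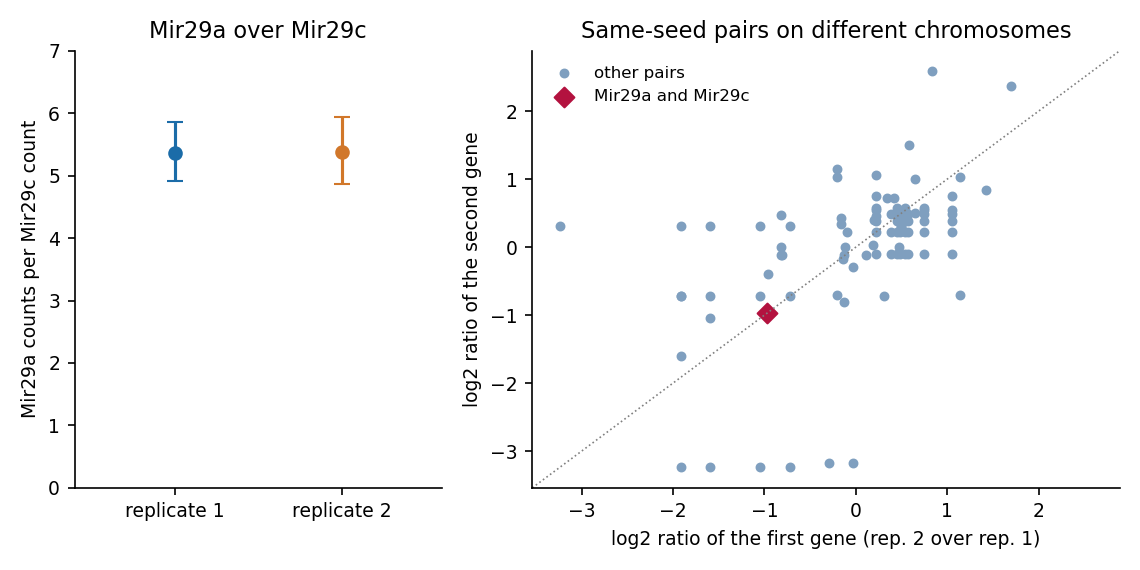
Left, counts of Mir29a per count of Mir29c in each library with exact 95% intervals (5.36 and 5.37). Right, log2 ratios of both genes of 93 same-seed pairs on different chromosomes, with the line of equality dotted, on which Mir29a and Mir29c (red) lie at -0.97.

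Genes with the most similar pattern were sought by Euclidean distance on log2(CPM + 1) over the 2 libraries, which with so few points mostly reflects level. Nearest to Mir29a were Mir154, at 1452 and 829 CPM, Mir149, at 1687 and 905 CPM, Mir434, Mir182 and Mir146. Mir154 and Mir434 belong to the imprinted Dlk1-Dio3 region. Nearest to Mir29c were Mir1193, at 293 and 142 CPM, Mir500, Mir323, Snord43 and Mir493. In the order of mean levels Mir29a came between Mir532, with a mean of 1213 CPM, and Mir154, with a mean of 1140 CPM. Mir29c came between Mir669c, with a mean of 226 CPM and higher in replicate 2, and Mir700, with a mean of 222 CPM. The gaps to these neighbours were smaller than the SD of Mir29a and of Mir29c.

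Other microRNAs tied to collagen and fibrosis did not share one direction. Beside the counts of this and the following lists stand the shares of all tested genes, 37.7% higher and 36.5% lower in replicate 2. With so few genes per list, nothing particular to a list is read from these counts. Some genes stand in more than 1 list, so the lists are not separate observations. Of 16 genes known to rise in fibrotic tissue, 13 were tested, 7 were higher in replicate 2, 5 were lower and 1 did not pass, with a median log2 ratio of 0.23 beside -0.01 for all genes tested. Mir21a, the widely studied microRNA of activated fibroblasts, had a log2 ratio of 1.45, Mir145a, of contractile smooth muscle, 2.68, and Mir143, of the same cluster as Mir145a, 0.34. Mir433 had -0.01 and did not pass. Mir208b reached the floor in replicate 1 alone, where it was higher, so its entry into the test depended on that library.

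Of 29 genes known, like miR-29, to oppose fibrosis, 26 were tested, 17 were higher in replicate 2, 6 were lower and 3 did not pass, with a median log2 ratio of 0.43. The abundant ones, Mir26b (1.27), Mir30d (0.23), Mir30e (0.51) and Mir30a (0.65), were higher in replicate 2, the direction opposite to Mir29a. Mir133b, Mir200a, Mir141, Mir26a-1 and Mir19b-1 reached the floor only in the library where each was higher. Mir19b-1 did not pass, and the calls of the other 4 rest partly on this selection. Of 6 genes that share the DNA methyltransferase targets of miR-29, such as Mir148a (-0.13) and Mir152 (-0.12), 1 was higher, 3 were lower and 2 did not pass, with a median of -0.12.

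Markers of tissues and cells that an adrenal dissection can hold also differed between the libraries, several in the direction of miR-29. Mir375, a microRNA of neuroendocrine cells such as those of the adrenal medulla, had 24805 and 31924 CPM, and no microRNA was used as a marker of the cortex. The liver microRNA Mir122 had 26733 and 9284 CPM in replicates 1 and 2 (log2 ratio -1.48), and the endothelial Mir126a 177728 and 47927 CPM (-1.84). Of 8 striated muscle genes 4 were tested and all 4 were lower in replicate 2 (median -1.74), with summed levels of 11315 and 4507 CPM over the list. Mir133b and Mir208b among them reached the floor in replicate 1 alone, so only Mir206 (-1.27) and Mir499 (-2.65) were free of that selection. Mir1a-1 and Mir133a-2 were at 0 in both libraries. Each is a numbered copy, and any reads that align to several copies are not counted, so 0 does not show absence. The 3 red blood cell genes were all lower (median -0.89, sums 653 and 320 CPM), and of 4 kidney genes 3 were tested, 2 lower and 1 higher (median -1.29, sums 410 and 214 CPM).

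Other marker lists went the opposite way or were divided. Of 7 smooth muscle and fibroblast genes, cells that make much of a tissue's collagen, 6 were tested, 4 were higher in replicate 2 and 2 were lower (median 0.53, sums 32093 and 46403 CPM). Most of these sums was Mir143, at 27532 and 33734 CPM. Higher were Mir143 (0.34), Mir140 (3.57), Mir145a (2.68) and Mir199b (0.72), and lower were Mir214 (-1.69) and Mir199a-2 (-0.61). All of these but Mir140 are also in the list of genes that rise in fibrosis. All 5 leukocyte genes were higher (median 0.99, sums 2455 and 4308 CPM). Of 4 fat genes 2 were higher and 2 did not pass (median 0.19), and of 5 neuroendocrine genes 1 was higher, 3 were lower and 1 did not pass (median -0.12). The part of these tissues and cells in the difference of Mir29a and Mir29c was not tested.

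**Figure D4:**
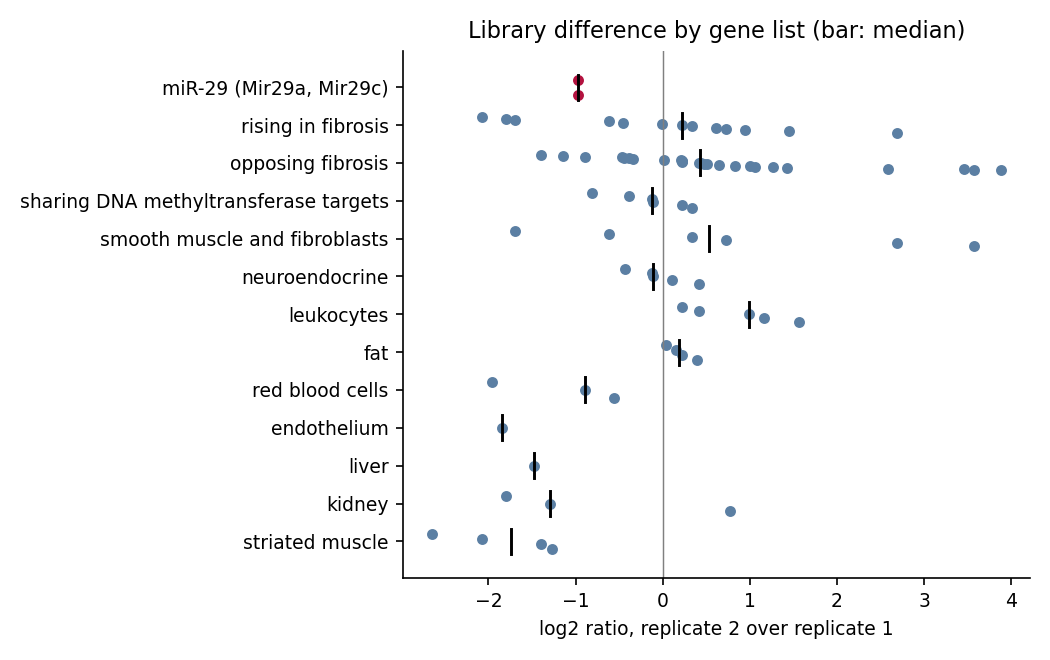
Log2 ratio of replicate 2 over replicate 1 for the tested members of each gene list (points), with the list's median as a bar. Mir29a and Mir29c (red) lie at -0.97. The medians of the liver, endothelium, striated muscle, kidney and red blood cell markers also lie below 0. So, at -0.12, do those of the neuroendocrine markers and of the genes sharing DNA methyltransferase targets. The medians of the other lists, among them the microRNAs that oppose fibrosis (0.43), lie above 0.

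To show what the counting leaves of duplicated genes, Mir29b-1 and Mir29b-2 were set among other genes with a RefSeq mature sequence, 1018 of the 2202. Of these, 57 genes, Mir29b-1 and Mir29b-2 among them, share 1 listed mature sequence with another gene and have another that is not shared. In this class 34 genes (59.6%) reached 10 CPM in both libraries, and the median mean level of those with a count was 65.7 CPM, above both Mir29b copies. Of 35 genes with every listed mature sequence shared, 4 (11.4%) reached it, and of 926 with none shared, 237 (25.6%). The classes differ in which genes were duplicated and how strongly these are expressed, which these counts cannot separate from reads lost.

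Among 38 twin pairs, 2 genes with 1 mature sequence in common, 28 had counts, and the Mir29b pair was 25 by summed mean level, at 15.2 CPM. At the top stood Mir92-1 with Mir92-2, at a summed mean of 2285 CPM, Mirlet7f-1 with Mirlet7f-2, at 1736 CPM, and Mir16-1 with Mir16-2, at 1285 CPM. Most of the first sum was Mir92-1, at 2555 and 1875 CPM, against 77.1 and 63.6 for Mir92-2. Most of the next was Mirlet7f-2, at 1402 and 1894 CPM, against 73.1 and 103 for Mirlet7f-1. Mir16-1 was, like Mir29a, lower in replicate 2, at 1301 and 609 CPM. Other pairs with a shared mature sequence thus had high counts in at least 1 copy, and the level of miR-29b itself cannot be read from these values.

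**Figure D5:**
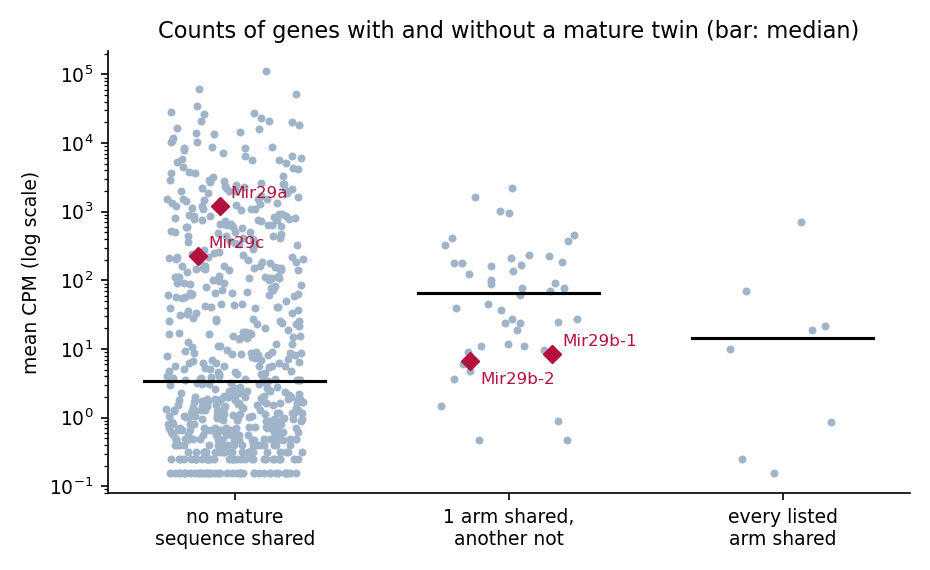
Mean CPM (log axis) of microRNA genes with at least 1 count, by whether they share a listed mature sequence with another gene, with each class's median as a bar. Mir29a and Mir29c (red) are among genes with unshared sequences, and the Mir29b copies, at 8.43 and 6.73 CPM, lie below the median of 65.7 CPM of their class.

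The letters that the seed pairs with were counted in the reference 3′ untranslated regions, as background to the family's name and not as a measurement in the gland. The motif was TGGTGCT, the reverse complement of the seed, searched on the strand of the transcript only, in the longest such region of each of 20979 protein-coding genes of GENCODE M21. It stood in 25 of 44 genes of collagen chains (56.8%), against 13.0% of all genes and 11.3% of the 5526 genes with a region of 781 to 1763 bases, the range between the quartiles of the collagen lengths. At least 2 matches stood in 25.0% of collagen genes and 2.02% of all genes. The longer motif TGGTGCTA, which contains the first and adds an A opposite base 1 of the microRNA, stood in 36.4% and 2.85%. Per kilobase there were 0.693 matches in collagen genes and 0.106 in all.

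A match is a description of sequence and does not show that the site is used. Of the textbook targets, Col1a1, Col3a1 and Col4a1 had 1 match each, Col5a1 had 4 and Col1a2 had 0 in this region. Outside the collagens, the elastin gene Eln had 3, the fibrillin gene Fbn1 had 2, Dnmt3a had 5, Dnmt3b had 1 and Mcl1 had 1. The sites of the main interstitial collagens Col1a1 and Col3a1, and 1 of the 3 in Col4a5, the collagen gene with the most matches to the longer motif, are printed on the transcript strand with that motif in capitals. Their positions in GRCm38 are chr11:94952523-94952552, chr1:45348967-45348996 and chrX:141688238-141688267, all on the plus strand.
Col1a1 site: gtgggaaggaatttcTGGTGCTAtagaagc
Col3a1 site: ttcaaaatgtctcaaTGGTGCTAtaataaa
Col4a5 site: cactgctcccaccaaTGGTGCTAatatcct
Read against the mature sequences printed first, the capitals pair with the seed that the 3p strands of all 4 genes hold in common. By these letters alone the members cannot be told apart.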

How the data were processed

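Small RNAs of adrenal glands were sequenced in 2 libraries of 1 group. The authors deposited unnormalized counts of reads for each microRNA gene, library by library, against mm10 (GRCm38), per the labels, with GENCODE M21 genes, per the text deposited with the tables. Which aligner and counter made them is not given in the sources used here. By their values, the 3 columns are reads irrespective of strand, on the gene's strand and on the opposite strand; the gene's strand was used. The 4 summary lines stayed out of totals: in replicates 1 and 2, of 5278986 and 8555429 reads, 38.3% and 37.5% were assigned, 25.0% and 27.2% had several alignments and 28.1% and 26.4% were unmapped. One count was 0.494 and 0.312 CPM. No molecular identifiers are named.

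CPM used all reads assigned to genes. Libraries were compared over 329 genes with at least 10 CPM in either, by a two-sided exact conditional binomial test with TMM sizes (edgeR 4.0.16, over all genes with a count, a gene set settled after the alternative had also been computed), Benjamini-Hochberg at 0.05, pseudocount 1 CPM; the test was checked on simulated counts. Ratios of counts were compared by Fisher's exact test (SciPy 1.17.1). Alternatives changed the column, library total, scaling (DESeq2 1.42.0), pseudocount, floor and replicate. Mature sequences came from RefSeq (GRCm38.p6) and 3′ untranslated regions from GENCODE M21. Members and lists were chosen with earlier results of these data known. Named genes were the members, the 5 nearest to each of Mir29a and Mir29c, their neighbours in rank, up to 4 leading genes per list and leading twin pairs; others were named after their values were seen.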

Additional observations from a re-analysis of the deposited data

How the results depend on the processing

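The log2 differences of Mir29a and Mir29c kept their direction and passed under all 9 alternatives run for each. They ran from -1.05 to -0.97 for Mir29a (adjusted exact p from 3.9e-167 to 1.0e-142). For Mir29c they ran from -1.05 to -0.96 (1.7e-32 to 6.4e-28). The pseudocount does not enter the test and the floor does not enter the log2 ratio, so those alternatives could not change that value. Beside 244 of 329 genes passing (74.2%), 247 of 790 passed with at least 1 count in either library (31.3%), 262 of 539 at 1 CPM (48.6%) and 195 of 217 at 100 CPM (89.9%). With the total taken over all reads, Mir29a was at 457 CPM, Mir29c at 85.2, Mir29b-1 at 3.20 and Mir29b-2 at 2.55. In the column counted irrespective of strand, whose total is smaller, Mir29b-1 was at 11.5 CPM and Mir29b-2 at 9.12. There Mir29a rose from 1201 to 1662 CPM, Mir29c from 224 to 310 CPM and the family share from 0.144% to 0.199%. Those rises of Mir29a, Mir29c and the share stayed within the replicate SD, which was wide at 578 CPM for Mir29a. Each level without 1 replicate is that of the other library, so that the Mir29a mean of 1201 CPM became 792 without replicate 1 and 1610 without replicate 2. TMM over genes above the floor alone, added after seeing the data, gave the -1.05 of both genes and 242 genes passing. The remaining levels, ratios and shares moved by less than the SD of the replicates. With 2 libraries this holds for any mean when 1 is left out, so leaving out a replicate could not show otherwise. The members had the same counts irrespective of strand, so their ratio and the Mir29b-1 share could not change in that column. No paired analysis was possible because the libraries form 1 group. The counts of 14 to 24 per library limit what can be said of the Mir29b copies.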

Other observations

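The Mir29b copies together had, per 100 counts of Mir29a and Mir29c, 0.854 counts in replicate 1 and 1.49 in replicate 2, with exact 95% intervals of 0.587 to 1.20 and 1.09 to 2.00. This ratio was chosen after its values were seen. Its difference between the libraries was not tested, and the overlap of the intervals does not decide it. Mir16-2 and Mir497, with 1 CPM added the same-seed pair next closest after Mir29a and Mir29c, had means of 330.4 and 902.4 CPM.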
